A study of Mus musculus with 32 samples.

Results

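Runs of closely spaced open sites that were called in liver endothelial cells and not in Kupffer cells were located along the autosomes. A run was a chain of at least 5 endothelial-only peaks in which neighbours lay at most 12.5 kb apart and had no Kupffer-only peak between them. Peaks overlapping the other cell type's list by at least 1 bp were called shared, and shared peaks neither interrupted a run nor counted towards it. There were 631 such runs on chromosomes 1 to 19. They held 4036 of the 37387 endothelial-only peaks, and the deposited lists of both cell types together held 229137 peaks.

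The peaks come from ATAC-seq, in which a transposase inserts adapters into accessible DNA, of cells isolated from livers of male C57BL/6J mice on normal chow. The labels describe 32 libraries: endothelial or Kupffer cells, from wild-type mice (WT) or from mice with the REV-ERB a/b double knockout, which the series' design places in adult hepatocytes, at ZT10 or ZT22 (hours after lights on), with 4 replicates in each of the 8 groups. REV-ERBα and REV-ERBβ are heme-binding repressors of the circadian clock. The age of the mice and the means by which the genes were deleted are not stated in the sources at hand. The authors' lists, 1 for each cell type, give only the position of each peak. Genotype, time, depth and replicate spread were therefore not analysed, no value below has a replicate, and no gene was assigned, because the gene table at hand is on GRCm38 and the peaks are on mm9. The labelled cell types could not be checked against marker genes for the same reason.

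Liver endothelial cells line the sinusoids, and most of them carry pores and scavenger receptors through which they exchange and clear blood-borne material. Kupffer cells are the macrophages resident in those sinusoids. Many sites of open chromatin away from promoters are enhancers, which are used in some cell types and closed in others. Genes that are central to a cell type often have many such sites spread over the locus, and dense groups of them have been described as stretch enhancers, super-enhancers or locus control regions. Whether any run described here acts in that way was not tested.

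Most endothelial-only peaks stood alone or in short chains. Of the 89631 endothelial peaks on these chromosomes, 41.7% overlapped no Kupffer peak, and these formed 24539 chains. Chains of a single peak numbered 17248 and held 46.1% of the endothelial-only peaks. Runs were 2.57% of the chains and held 10.8% of the endothelial-only peaks (95% exact binomial interval 10.5% to 11.1%). This interval, like those below, covers counting error only and treats peaks as independent. The rule itself uses the positions and the cell type of the peaks, so these counts describe the runs and support nothing further.

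Chains were fewer with each added peak, up to 11 peaks. There were 618 chains of 4 peaks, just short of the rule, and 296 runs of 5, just inside it. The median run had 6 endothelial-only peaks (quartiles 5 and 7), 48 runs had at least 10, and 9 had at least 15. At the distance limit, 326 neighbouring pairs with gaps of 11.5 to 12.5 kb had no Kupffer-only peak between them, and 74 of those gaps lay in runs. A similar number, 310, had gaps of more than 12.5 and up to 13.5 kb and no Kupffer-only peak between. The number of runs depends on such settings: 268 were found with a limit of 6.25 kb and 952 with 25 kb. Without peaks of 151 bp, the most frequent width over both lists, 376 were found. With peaks up to 1 kb apart joined in both lists, 248 were found.

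**Figure D1:**
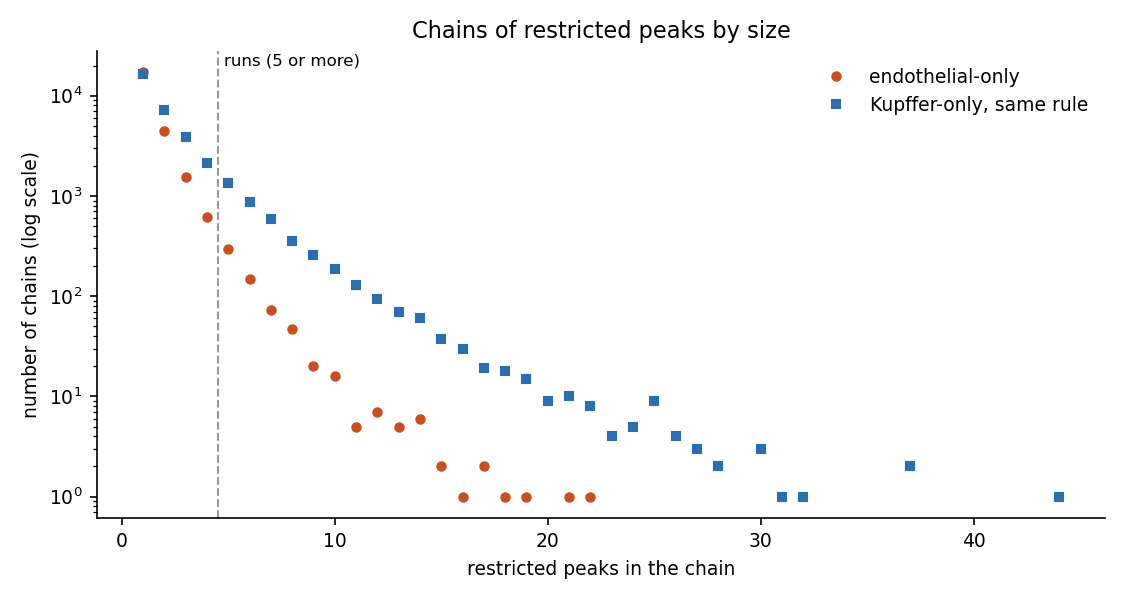
Number of chains (log scale) against the number of restricted peaks in the chain, for endothelial-only peaks (circles) and for Kupffer-only peaks under the same rule (squares), on chromosomes 1 to 19. The dashed line marks the minimum of 5. Endothelial-only chains fall from 17248 single peaks to 296 runs of 5 and a largest run of 22, and Kupffer-only chains reach 44.

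The same rule with the cell types exchanged gave more and larger runs. Kupffer-only peaks formed 4115 runs, which were 12.1% of their chains and held 37.5% of the 81942 Kupffer-only peaks (37.2% to 37.8%). Of these, 181 had at least 15 peaks and the largest had 44, against 22 for the largest endothelial run. There were 2.19 Kupffer-only peaks per endothelial-only peak. In length and spacing the runs of both kinds were close: the Kupffer runs had a median length of 21.7 kb, against 20.2 kb, and a median gap of 2547 bp between peaks, against 2801 bp. The same rule bounds the spacing, and with it the length, of both kinds, so this closeness is partly set by the rule. With the limit at 6.25 kb and at 25 kb the median endothelial run length was 11.1 and 31.4 kb. The larger share of Kupffer-only peaks in runs cannot be told apart here from the greater length of the Kupffer list.

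Endothelial-only runs were short stretches of dense peaks. Their median length was 20.2 kb (quartiles 14.0 and 27.7 kb), with extremes of 2.41 and 109 kb. Together they spanned 13.7 Mb, or 0.569% of the distance covered by peaks on these chromosomes. Only 12 runs were longer than 50 kb, and 14 were shorter than 5 kb. Inside runs there were 29.4 endothelial-only peaks per 100 kb, against 1.55 over the whole span, a difference that the rule creates. Endothelial-only peaks covered a median of 6.38% of the bases of a run, and peaks of either list, shared ones included, a median of 7.60% (from 2.91% to 49.3%). In every run, most of the DNA thus lay outside the called peaks.

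**Figure D2:**
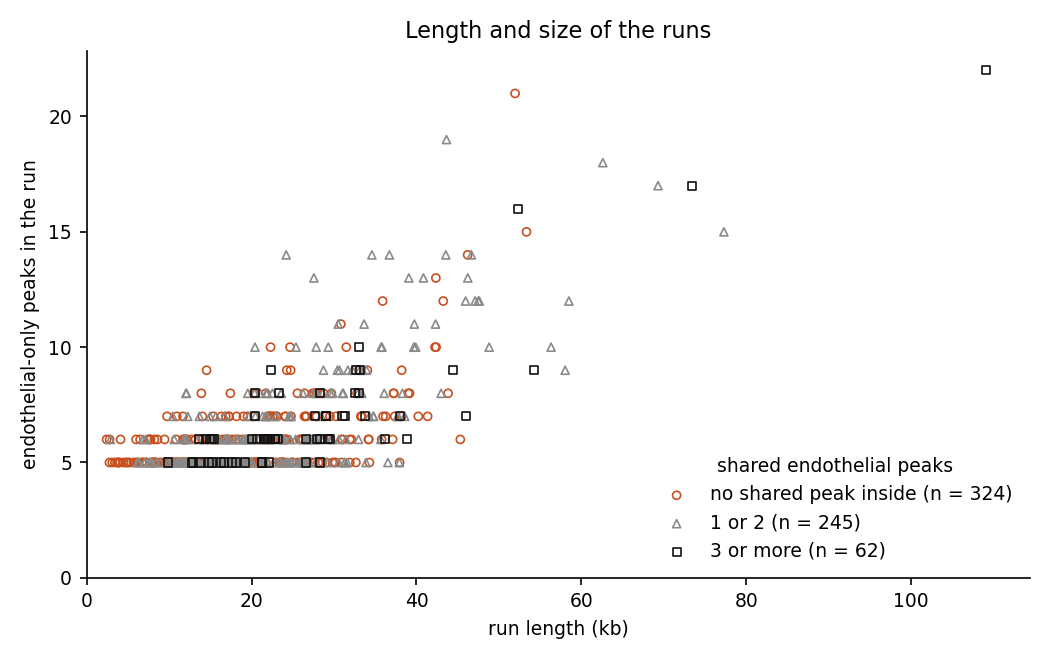
Length of each of the 631 runs (kb) against its number of endothelial-only peaks, with symbols for the number of shared endothelial peaks inside. Runs of 5 to 7 peaks extend from under 5 kb to over 40 kb, and the run of 22 peaks, at 109 kb, lies apart from the others in length.

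Spacing within runs ran from direct neighbours to the limit. The 3405 gaps between consecutive endothelial-only peaks of a run had a median of 2801 bp, quartiles of 837 and 6092 bp, and extremes of 1 and 12491 bp. Gaps of up to 1 kb made up 27.5%, and 504 runs had at least 1 of them. Gaps over 10000 bp made up 6.64%. Among all neighbouring endothelial-only peaks up to 12.5 kb apart, in runs or not, the median gap was 3657 bp and 24.8% were of up to 1 kb. Of those 16384 neighbours, 21.6% had a Kupffer-only peak between them and so could not be joined.

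Peaks of a run that lay up to 1 kb apart were also joined and counted as 1 site. The 4036 peaks in runs then made 3100 sites, or 1.30 peaks per site. Of the 631 runs, 342 (54.2%) still had at least 5 sites, 127 had no peaks so close, and 4 collapsed into a single site. The median run had 5 sites and the fullest had 19.

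The run with the most endothelial-only peaks was also the longest. It lay at chr4:57770978-57880026 on mm9 and held 22 peaks over 109 kb, with a median gap of 4866 bp. Its peaks were from 151 to 409 bp wide, and the widest lay at chr4:57862502-57862910, 91.5 kb from the start of the run. It held 5 shared peaks, the first pair of them at 25.1 and 26.0 kb and the last at 108 kb, next to its right end. On its left no further endothelial-only peak was found for 62911 bp and no Kupffer-only peak for 239397 bp. On its right a further endothelial-only peak lay 12938 bp away, just beyond the limit.

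The second run, at chr2:3060709-3112667, differed from it in several ways. It packed 21 endothelial-only peaks into 52.0 kb, with a median gap of 1936.5 bp and no gap above 6189 bp. No shared peak lay inside it, and in the 25 kb on either side there were 3 endothelial-only peaks and no Kupffer-only peak. With the limit lowered to 6.25 kb it kept all of its peaks. It lies at the start of the chromosome's peaks: the first peak of either list was 47.2 kb to its left, and no Kupffer-only peak preceded it.

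The third run, of 19 peaks at chr17:74159219-74202857, had a median gap of 1802.5 bp and 4.35 peaks per 10 kb, the closest spacing among the 9 runs of at least 15 peaks. Its single shared peak, 33.3 kb from the start, was narrow in both lists, at 166 bp in endothelial and 151 bp in Kupffer cells. Endothelial-only peaks continued on both sides of it, at 12704 bp to the left and 14424 bp to the right. With the limit raised to 25 kb the run grew to 34 peaks, the largest run under any setting tried. No Kupffer-only peak lay within 336858 bp on the left or 40552 bp on the right.

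Wider peaks marked the next run, at chr5:76314273-76376874. Its 18 peaks had a median width of 249 bp, only 4 of them were 151 bp wide, and the widest, at chr5:76370621-76371122, reached 502 bp. A Kupffer-only peak began 132 bp beyond its right end. The run of 17 peaks at chr8:11249626-11323076 likewise ended 255 bp from a Kupffer-only peak, the only one in its flanks, and held 5 shared endothelial peaks that met 6 Kupffer peaks. Beyond that Kupffer-only peak, endothelial-only peaks resumed 1812 bp from the end of the run. A second run of 17 peaks, at chr10:39222224-39291524, had a Kupffer-only peak 2925 bp to its left and 15078 bp to its right. These 3 runs differ from those on chromosomes 4, 2 and 17, which had no Kupffer-only peak in the 25 kb on either side.

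The remaining 4 of the 10 largest runs had 14 to 16 endothelial-only peaks. That at chr15:93345819-93398186 had 16 peaks and 4 shared ones, 3 of which lay within 5 kb of its left end. A second run on that chromosome, at chr15:55623049-55700334, spread 15 peaks over 77.3 kb and had the widest median gap of the 10 runs, 5102.5 bp. No run was left there with a limit of 6.25 kb. The run at chr16:95563195-95616538 had 15 peaks and no shared peak, and that at chr9:62338107-62384766 had 14 peaks, of which 7 were 151 bp wide. Neither of these last 2 was found when only the wider peaks of each list (those above the list's median width) were used. The tenth place was shared by 6 runs of 14 peaks, of which that on chromosome 9 was taken as the longest. Another of them, named after its values were seen, lay at chr5:113619643-113643843 and was packed far more closely, with a median gap of 607 bp, no gap above 5866 bp and 5.78 peaks per 10 kb.

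**Figure D3:**
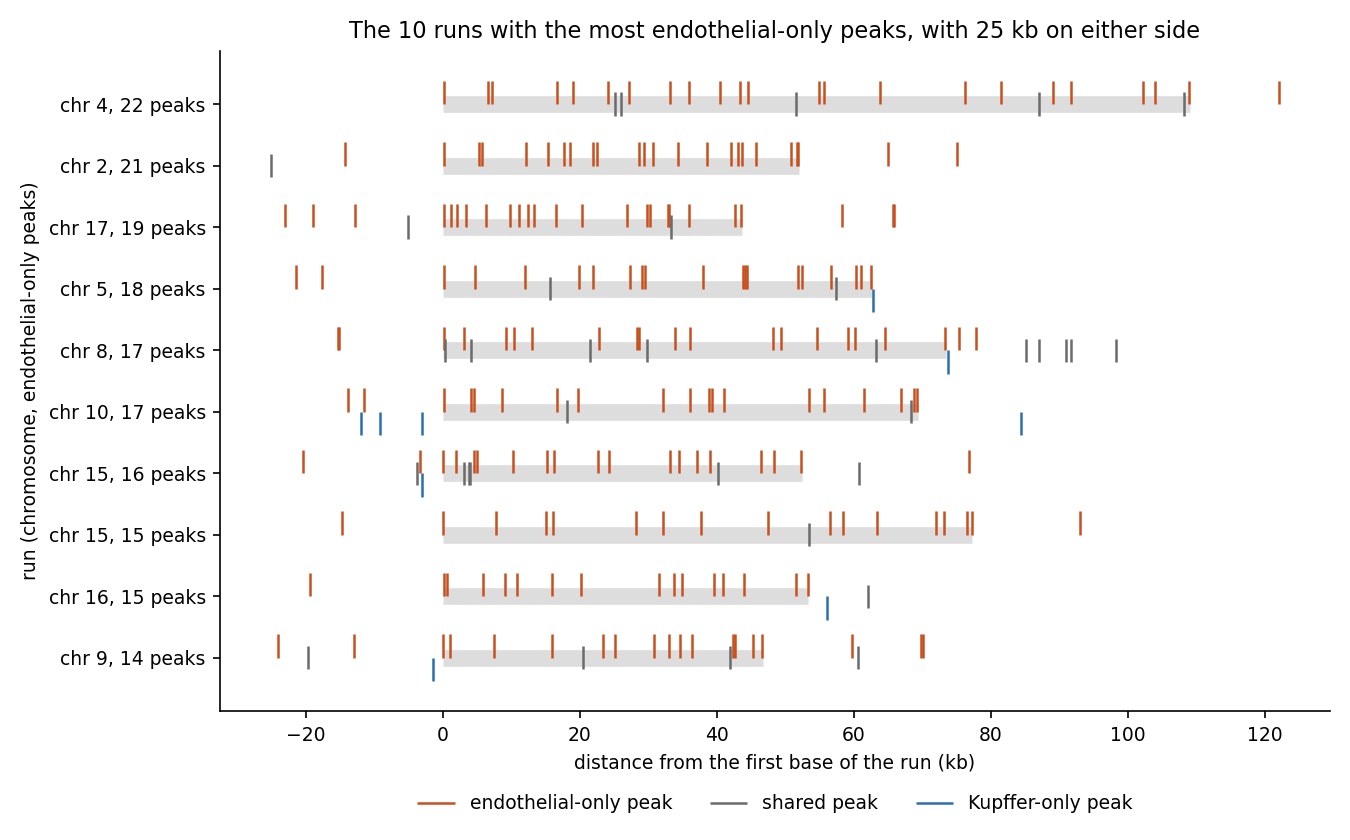
Peaks of the 10 runs with the most endothelial-only peaks (the longest of 6 runs of 14 takes the tenth place), drawn by the distance of their centres from the first base of the run (kb), with 25 kb on either side; ticks do not show peak width. Grey bars mark the runs, raised ticks endothelial-only peaks, central ticks shared peaks and lowered ticks Kupffer-only peaks. Kupffer-only peaks appear in the flanks of 6 of the 10 runs, and never within a run, as the rule demands.

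The densest runs were of another kind. The 5 with the most peaks per 10 kb had only 5 or 6 peaks and were at most 3.11 kb long. At chr4:54960936-54963349, 6 peaks lay within 2.41 kb, or 24.9 per 10 kb, with a median gap of 286 bp; 5 of them were 151 bp wide and the sixth was 186 bp wide. The run at chr2:26450112-26452891 had 6 peaks in 2.78 kb and lay among 8 further endothelial-only, 9 shared and 6 Kupffer-only peaks in its flanks. Those at chr7:105251816-105254689, chr1:121317711-121320477 and chr3:153352850-153355958 had 20.9, 18.1 and 16.1 peaks per 10 kb. No gap in these 5 runs exceeded 1254 bp. In the first 4 of them none exceeded 792 bp, so these are the 4 runs that collapsed into a single site when peaks up to 1 kb apart were joined. How the authors joined adjoining or overlapping peaks of different libraries is not stated.

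Shared peaks lay inside 307 of the 631 runs, or 48.7% (44.7% to 52.6%), and 324 runs had none. A single shared peak was found in 158 runs, 2 in 87 and 3 or more in 62. In all, 574 shared endothelial peaks lay inside runs, 12.5% of the endothelial peaks there, against 58.3% over the chromosomes, a contrast that follows from choosing runs of endothelial-only peaks. Per unit of length, shared peaks were denser inside runs than over the whole span, with 4.18 against 2.17 per 100 kb. They were sparser than in the 25 kb on either side (outside any run), with 5.29. Kupffer-only runs held more of them: 6454 shared endothelial peaks in 102 Mb, against 574 in 13.7 Mb of endothelial-only runs. A shared Kupffer peak lay inside 65.1% of Kupffer-only runs (63.6% to 66.6%). Of the shared peaks, 51.2% had their centre between 25% and 75% of the run's length, against 54.2% of the endothelial-only peaks that were not at an end.

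Runs with many shared peaks were mixed regions. The most, 9, lay in the run at chr10:39112954-39141288, among only 5 endothelial-only peaks, of which 4 were 151 bp wide; the shared peaks there had a median width of 242 bp in endothelial cells. This run is 1 of a group of 3 that includes the run of 17 peaks on chromosome 10 described above. The runs at chr4:125807800-125828204 and chr7:137798196-137837013 had 7 shared peaks each, beside 8 and 6 endothelial-only peaks. Those at chr5:113551738-113584448 and chr4:32332796-32350478 had 6, beside 9 and 5. Only 3 of all runs had more shared than endothelial-only peaks. At the other extreme, the largest runs with no shared peak were those on chromosomes 2 and 16 given above and the run of 14 peaks at chr10:115679374-115725578, whose widest peak was 505 bp wide.

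Peaks in runs were wider than other endothelial-only peaks. Their median width was 203 bp (quartiles 151 and 247 bp), against 165 bp (151 and 229 bp) for endothelial-only peaks outside runs. The most frequent width over both lists, 151 bp, was found in 31.9% of peaks in runs (30.5% to 33.4%). Outside runs it was found in 46.2% (45.7% to 46.7%), with 44.7% over all endothelial-only peaks. No endothelial-only peak was narrower. Peaks wider than 300 bp made up 8.92% (8.06% to 9.84%) in runs and 5.96% (5.71% to 6.22%) outside, with 6.28% over all. With 151 bp peaks left out of both lists, the difference in median width was 6 bp (231 bp in runs and 225 bp outside), against 38 bp with them. In these measures the peaks in runs lay nearer to shared endothelial peaks, whose median width was 210 bp, with 27.4% of 151 bp and 9.45% wider than 300 bp.

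Peaks were wider in larger chains. The share of 151 bp peaks was 51.3% in chains of 1 (50.5% to 52.0%), 42.9% in chains of 2, 39.3% in chains of 3, 35.6% in chains of 4 (33.7% to 37.6%) and 32.4% in runs of 5 (30.0% to 34.8%). From chains of 4 on, the intervals of neighbouring classes overlapped: the share was 32.8% in runs of 6 or 7, 31.4% in runs of 8 to 10 and 28.6% in runs of 11 or more (24.4% to 33.0%). Peaks at the ends of runs had a median width of 197 bp and those further in one of 206 bp. The same direction held for Kupffer-only peaks, with 22.5% of 151 bp peaks in Kupffer runs (22.0% to 22.9%) and 30.5% outside (30.1% to 30.9%). What a width of 151 bp stands for in the authors' processing is not given, and its part in these differences was not tested.

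**Figure D4:**
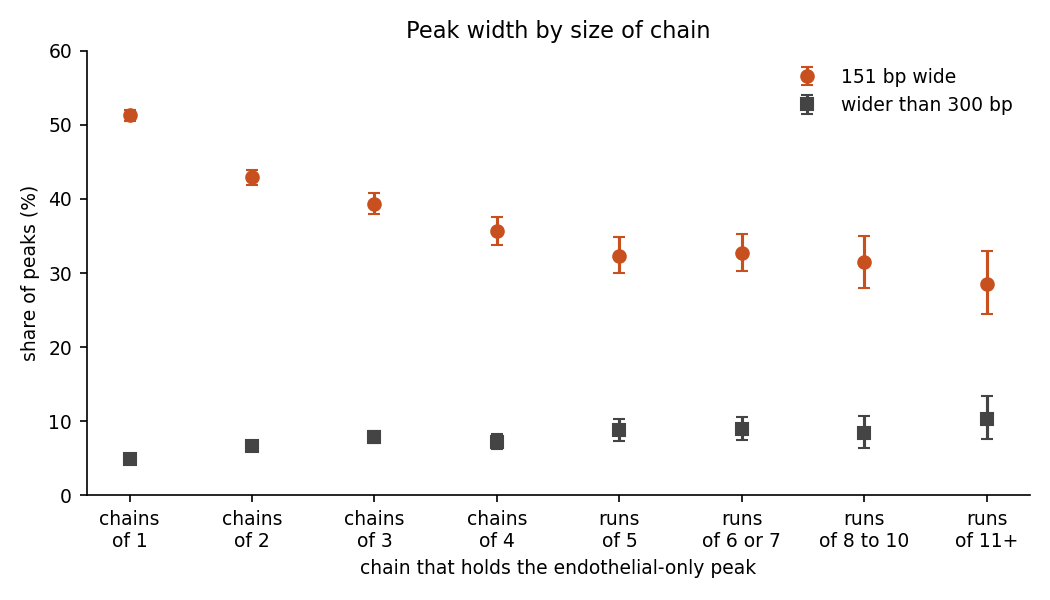
Share (%) of endothelial-only peaks that are 151 bp wide (circles) and wider than 300 bp (squares), by the size of the chain that holds them; bars are 95% exact binomial intervals. The share of 151 bp peaks goes from 51.3% in chains of 1 to 32.4% in runs of 5 and 28.6% in runs of 11 or more.

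Single runs varied widely in this respect. In 97 runs every peak was wider than 151 bp, whereas in 153 runs 50% or more of the peaks were 151 bp wide. All peaks were 151 bp wide in 6 runs, of 5 or 6 peaks each. The widest peak of any run, of 619 bp, lay at chr11:55210718-55211336, at the left end of a run of 5 peaks.

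Shared sites inside endothelial-only runs were wider in the endothelial list than in the Kupffer list. Among sites at which 1 endothelial peak met 1 Kupffer peak, 550 lay inside endothelial-only runs, and the endothelial peak was the wider one at 311 of them, or 56.5% (52.3% to 60.7%). The Kupffer peak was wider at 178 sites and the widths were equal at 61. Outside runs of either kind the endothelial peak was wider at 42.4% of 43173 sites (41.9% to 42.9%), and inside Kupffer-only runs at 40.3% of 6116 sites (39.0% to 41.5%). The Kupffer peak was the wider one at 32.4% of sites in endothelial-only runs, 41.3% of sites outside runs and 49.3% of sites in Kupffer-only runs, so in runs of either kind the wider peak was more often that of the run's own cell type. The median difference, endothelial minus Kupffer, was 15 bp inside endothelial-only runs (quartiles -19.75 and 66 bp) and 0 bp in both other places.

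Peaks of 151 bp were shifted in both lists. The Kupffer peak was 151 bp wide at 34.7% of sites in endothelial-only runs (30.7% to 38.9%), 24.8% of sites outside runs and 15.8% of sites in Kupffer-only runs. The endothelial peak was 151 bp wide at 21.3% (17.9% to 24.9%), 27.6% and 25.8% of the same sites. The median widths were 222 bp in endothelial and 194 bp in Kupffer cells inside endothelial-only runs, and 209 and 206 bp outside runs. Without pairs that hold a 151 bp peak the endothelial peak was wider at 59.6% of 302 sites in endothelial-only runs (53.8% to 65.2%), 52.6% of sites outside runs and 50.2% of sites in Kupffer-only runs. The Kupffer peak was then wider at 40.1%, 46.3% and 48.8% of sites in the same 3 places, still most often in Kupffer-only runs. Within Kupffer-only runs, however, it was no longer the wider one more often than the endothelial peak. With the limit at 6.25 kb the share inside runs was 50.7% of 136 sites (42.0% to 59.4%). The runs were chosen from these same lists, sites in 1 run are not independent, and no test was made.

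**Figure D5:**
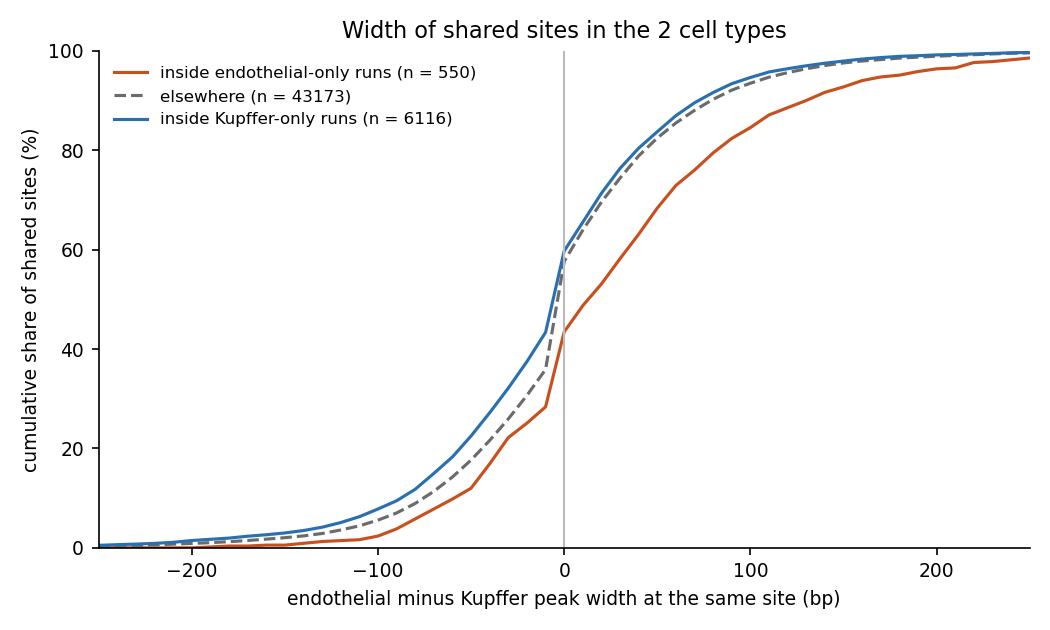
Cumulative share (%) of shared sites against the difference in width, endothelial minus Kupffer (bp), for sites inside endothelial-only runs (solid line furthest right, n = 550), outside runs (dashed, n = 43173) and inside Kupffer-only runs (solid line furthest left, n = 6116); the x axis is limited to the range drawn. The curve for endothelial-only runs lies to the right of the others, with a median of 15 bp.

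Runs ended at Kupffer-only peaks and at open gaps in different proportions. Of the 1262 run ends, 261 (20.7%) were set by a Kupffer-only peak alone, 459 (36.4%) by a gap of more than 12.5 kb alone, and 542 (42.9%) by both. In 38 runs a Kupffer-only peak alone set both ends. The nearest Kupffer-only peak lay a median of 16613 bp from a run's end (quartiles 3618.5 and 63278 bp), within 1 kb at 112 ends and within 12.5 kb at 45.0% of ends. The stretch free of Kupffer-only peaks around a run thus had a median of 66.9 kb, several times the median run length.

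Around runs, all 3 kinds of peak were denser than over the chromosomes as a whole, although the rule itself places some Kupffer-only peaks there by ending runs at them. The 25 kb on either side made up 29.8 Mb once overlapping flanks were counted a single time and the parts inside other runs were left out. In them there were 3.76 endothelial-only, 5.29 shared and 5.56 Kupffer-only peaks per 100 kb, against 1.55, 2.17 and 3.40 over the span. A median of 2 Kupffer-only peaks lay in the flanks of a run, and 162 runs had none. In 111 runs no shared peak was called inside or in the flanks. Of those, 73 had no Kupffer-only peak in the flanks either, and 34 had no called peak of any kind there. In the flanks of Kupffer-only runs the median number of endothelial-only peaks was 1. The lower quartile of the other cell type's peaks in the flanks was 0 for both kinds of run. How often stretches of this length elsewhere lack such peaks was not counted, so these counts describe the runs alone. The longest stretch without a Kupffer-only peak, 3395 kb on chromosome 15, held 2 runs of 5 peaks, at chr15:68991551-68996019 and chr15:69367956-69387310. Neither had a shared or Kupffer-only peak in its flanks.

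Runs were found on each of the 19 autosomes. Their number went from 18 on chromosome 19 to 55 on chromosome 2, with a median of 31. The share of endothelial-only peaks that lay in runs was lowest on chromosome 11, at 7.51% (6.46% to 8.68%), and highest on chromosome 5, at 13.1% (11.7% to 14.5%), beside 10.8% overall. Chromosome 11 had 2.69 Kupffer-only peaks per endothelial-only peak, among the highest ratios. Chromosome 8, with the lowest ratio of 1.87, had 12.9% of its endothelial-only peaks in runs (11.5% to 14.4%). The order did not follow the ratio throughout, since chromosome 19, with the highest at 2.74, had 11.1% (9.23% to 13.2%).

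Some runs lay close to others. The median distance to the next run on the chromosome was 1892.5 kb, but 104 of 612 neighbouring pairs were at most 100 kb apart and 13 at most 12.5 kb. The pairs and larger sets within 100 kb formed 82 groups with 186 runs, 20 of them with at least 3 runs. The groups named here were chosen after their values were seen. At chr9:14379283-14482253, 3 runs with 25 endothelial-only peaks followed each other over 103 kb with 2 shared peaks and no Kupffer-only peak. At chr16:95489227-95686547, 3 runs held 34 of the 35 endothelial-only peaks, beside 4 shared peaks and 1 Kupffer-only peak in 197 kb. Largest by number of runs was a pair of groups on chromosome 8, each with 4. That at chr8:34895462-35027816 had 24 endothelial-only, 13 shared and 2 Kupffer-only peaks, and that at chr8:114015189-114326477 had 33, 31 and 23, a mixed region.

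Kupffer-only peaks divided some of the densest regions, and gaps divided others. Of the 5 windows of 100 kb with the most endothelial-only peaks, that on chromosome 17 (23 peaks) contained no Kupffer-only peak and was met by runs of 5 and 19 peaks. A gap of 12704 bp parted these 2 runs. The window at chr4:137000001-137100000, with 22 endothelial-only and 4 Kupffer-only peaks, was divided into runs of 5, 11 and 5. Windows at chr6:88700001-88800000 and chr8:113200001-113300000 held 21 endothelial-only peaks each, with 6 and 5 Kupffer-only peaks, and their largest runs had 13 and 9. The runs of 5 and 13 peaks on chromosome 6 were parted by a gap of 16824 bp with no Kupffer-only peak in it. The fifth window, at chr15:93300001-93400000, held 21 with 3 Kupffer-only peaks and was met by the run of 16 peaks given above. When 1 Kupffer-only peak was allowed between neighbours, 926 runs were found, which held 16.5% of the endothelial-only peaks, and the largest still had 22.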

How the data were processed

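Transposed DNA of isolated liver endothelial and Kupffer cells was sequenced in 32 libraries. Per the submitters' processing notes, Bowtie and HOMER were used with mm9; versions, threshold, fragment selection and merging of libraries are not stated in the sources at hand. The authors deposited 1 list of nucleosome-free peaks for each cell type, with chromosome, start and end and no score, count or library. Depth is thus unknown. No columns of other series were present.

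Overlaps, chains and widths were computed with NumPy 2.4.6 and pandas 2.3.3 in Python 3.11.15, exact (Clopper-Pearson) 95% intervals with SciPy 1.17.1 and figures with Matplotlib 3.10.9. Counts of shared peaks were identical with bedtools 2.31.1, and the chaining was tested on simulated data. A gap is counted from the end of 1 endothelial-only peak to the start of the next. Named are the 10 runs with the most peaks (ties by greater length), the 5 longest, the 5 densest, the 5 with the most shared peaks and the 3 largest without any. The members, lists and settings were chosen with earlier results of these data known. Windows of 100 kb, groups of runs, sites and paired widths were added after the runs were seen. No test was made, since 2 lists give no replicates. No mm9 genome or annotation was at hand, so motifs, sequences and genes were not analysed here. Positions are on mm9, counted from 1.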

Additional observations from a re-analysis of the deposited data

Results flagged for a closer look

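The X chromosome, which the runs above leave out, also held endothelial-only runs by the same rule. There were 5 runs with 27 peaks, or 3.86% of its 700 endothelial-only peaks, against 10.8% on the autosomes. The X chromosome had fewer endothelial-only peaks than any autosome (the lowest was 989, on chromosome 19), beside 1868 Kupffer-only peaks. What part this has in the lower share was not tested. These runs were flagged because the X chromosome was left out above and their number exceeded a fixed floor of 3. That floor says nothing about how many runs such a list would give. The run at chrX:48558107-48559493 had 5 peaks in 1.39 kb, or 36.0 per 10 kb, denser than any autosomal run. Of the other 4, of 5 or 6 peaks over 14.7 to 23.2 kb, that at chrX:47955744-47970476 held 3 shared peaks and the others none.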

How the results depend on the processing

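The limits of these results are those of 2 lists without depth, score or replicate: a peak missing from a list may be open and uncalled. Of 71 alternative values for 7 results, 36 differed from the value given by less than its binomial interval (shares) or by no more than 1.5 times (counts, lengths and the difference in median width), and 35 moved further. Runs numbered 268 with gaps of up to 6.25 kb, 952 with 25 kb, 376 without 151 bp peaks, 258 with the wider 50% of each list, 248 with peaks within 1 kb joined and 115 with at least 8 peaks. In the same order, the share of endothelial-only peaks in runs was 4.26%, 17.7%, 9.32%, 6.58%, 5.55% and 3.11%, and that of runs with a shared peak 33.2%, 57.9%, 33.2%, 32.9%, 44.4% and 67.8%. Where shared peaks had to overlap over 50% or more of each, 9.26% of endothelial-only peaks were in runs. With peaks within 500 bp counted as shared, 11.5% were, and 43.8% of runs had a shared peak. With 1 Kupffer-only peak allowed these values were 16.5% and 62.4%. The median run length was 11.1 kb at 6.25 kb, 31.4 kb at 25 kb and 32.9 kb with at least 8 peaks. Kupffer runs numbered 2293 at 6.25 kb, 1411 with the wider peaks, 1622 with joined peaks and 1331 with at least 8, more than endothelial runs in each. Shared sites inside runs were wider in endothelial cells in 50.7% of cases at 6.25 kb, 64.1% without 151 bp peaks and 61.0% with at least 8 peaks. The median width in runs exceeded that outside by 38 bp, by 6 bp without 151 bp peaks, by 4 bp with the wider peaks, and by 31 to 40 bp under the other 8 settings. Shorter gaps, fewer peaks and a higher minimum lower the number of runs by construction; other causes were not tested. Of the 631 runs, 261 were met by a run at 6.25 kb, 294 without 151 bp peaks, 183 with the wider peaks and 596 with the 50% overlap. For the 10 largest runs, 71 of 100 alternative sizes were within 1.5 times the size given and 3 times no run was left. The 71 include sizes that could not change: adding the X chromosome cannot alter an autosomal run. Nor can a minimum of 8 peaks alter runs of this size. Kupffer runs, widths, paired sites and sizes of single runs were added to the planned settings after the data were seen. No paired analysis was possible because neither list names a library, and for that reason no replicate could be left out.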

Other observations

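A second run near the start of a chromosome's peaks was found beside that on chromosome 2. On chromosome 10 the first run, of 8 peaks, began at 3150327, 137 kb after the first peak of either list. On the other 17 autosomes the first run began about 785 kb or more after the first peak, and on chromosome 7 it began 14144.5 kb after it.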
